A study of Mus musculus with 11 samples.

Results

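Elastic fibre genes were followed in primary mouse hippocampal cultures that received either a miR-181a-5p mimic or a control oligonucleotide. The set held 10 genes, Efemp1, Efemp2, Fbln1, Fbln2, Fbln5, Fbn1, Fbn2, Eln, Ltbp1 and Ltbp2, out of 48709 genes listed in the count tables. Each symbol matched 1 Ensembl identifier, and all 10 genes passed the filter on low counts (a minimum of 5 counts, reached in no less than 50% of samples), as did 17365 genes in all. The set was built around Efemp1, which was chosen by its measured difference between mimic and control samples in earlier results of these data, and the other genes were added for their place in the elastic fibre. Values of the members in that contrast are therefore given as a description with no p-value, and where a member is said to be called, that too only describes it.

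The cultures came from the hippocampi of embryos of CD1 mice at embryonic day 17, pooled over embryos, and held glia beside neurons. Lipid nanoparticles were added on day 10 in vitro together with the apolipoprotein ApoE4, which both groups received, and RNA was taken on day 12 after 48 hours. The control group had 6 samples with a negative control oligonucleotide and the mimic group had 5 samples with the miR-181a-5p mimic. No label says whether samples of a group were separate cultures, so the spread between them may be technical, and p-values measure that spread alone. Total counts lay between 17287168 and 48091231 per sample. Control replicate 1 was the deepest, and for 6 of the 10 members it also had the lowest control level, so values without it are given below.

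Elastic fibres give stretch to arteries, skin and lung. They consist of a core of cross-linked elastin on a scaffold of microfibrils, which are built from fibrillins. Fibulins link elastin, microfibrils and the enzymes that cross-link elastin, and latent TGF-beta binding proteins (LTBPs) attach to fibrillin and can hold TGF-beta in an inactive form. In brain these genes are known mainly from the meninges and blood vessels, while neurons are not known for making elastic fibres.

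The sequences that set the treatment apart are the mimic and its control. RefSeq lists the same mature miR-181a-5p from 2 loci on GRCm38.p6, Mir181a-1 on chromosome 1 (137966468 to 137966490) and Mir181a-2 on chromosome 2 (38852741 to 38852763), and the mimic listed by the study had the identical sequence. Capitals mark bases 2 to 8, which in a microRNA are the seed that pairs with messenger RNA.
miR-181a-5p mimic: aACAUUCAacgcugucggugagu
negative control: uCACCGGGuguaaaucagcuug

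A match of the whole seed, TGAATGT, was found in the longest annotated 3' UTR of 0 of the 10 members, and in 0 of them when any annotated 3' UTR was read. Among all 14489 tested genes with a 3' UTR, 18.5% held it. The longest 3' UTRs of the members ran from 425 bases (Efemp1) to 4177 bases (Fbln5), with a median of 1113 against 1201 over all tested genes. The shorter match GAATGT, which pairs with bases 2 to 7 and lies within TGAATGT, occurred in Eln, Ltbp1 and Fbn2, that is 3 of 10 members against 36.6% of all tested genes. In Eln it was followed by an A (GAATGTA, found in 12.8% of the tested genes). Of the 10 members, Eln alone was on the study's list of predicted miR-181a-5p targets. These windows show the sites in Eln and Ltbp1, with the match in capitals. They are read from GENCODE M21 transcripts on GRCm38, and both lie in 3' UTRs.
Eln, chromosome 5, 134703708 to 134703732, minus strand: cttggtggaGAATGTAaaccttcta
Ltbp1, chromosome 17, 75390637 to 75390660, plus strand: cctaacccaGAATGTggcaaagac

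Levels can be compared between genes only per length. On the RPKM scale (read counts scaled to exon length and library size), the members were of middling or low level in control samples. Fbln1 was highest with 3.00 ± 0.203 RPKM (SD, n = 6), at percentile 47.3 of the tested genes. Eln followed with 2.81 ± 0.697, Efemp2 with 2.75 ± 0.202, Fbn1 with 2.59 ± 0.311, Fbn2 with 2.20 ± 0.287 and Fbln2 with 2.13 ± 0.187 RPKM. Each of these 6 genes overlapped the next among them, so the order of neighbours is not resolved. Genes farther apart could differ. The control range of Fbln1 (2.74 to 3.25 RPKM) lay wholly above Fbn2 (1.85 to 2.58) and Fbln2 (1.78 to 2.29). That of Efemp2 (2.43 to 3.00 RPKM) lay wholly above Fbln2. Fbln5 came next with 1.46 ± 0.149 RPKM, below Fbln2 and above Ltbp1 in 6 of 6 control samples without overlap. Ltbp1 (0.596 ± 0.0363 RPKM) and Efemp1 (0.575 ± 0.176 RPKM) overlapped. Ltbp2 was lowest with 0.169 ± 0.0482 RPKM, at percentile 8.47, and its range lay apart from that of Efemp1. The gene chosen for its difference was thus among the 3 least expressed members.

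**Figure D1:**
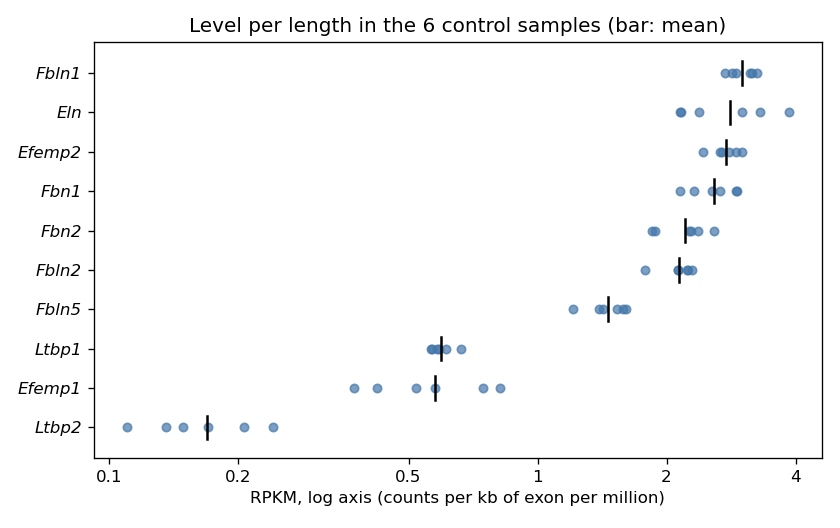
RPKM of the 10 members (log axis) in the 6 control samples, with points for samples and a bar for the mean. The 6 genes from Fbln1 (3.00) to Fbln2 (2.13) overlap in a chain, Fbln5 lies below them, Ltbp1 and Efemp1 overlap near 0.6, and Ltbp2 is lowest.

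Across all tested genes, 495 were called different between mimic and control (2.85% of genes, edgeR quasi-likelihood test, Benjamini-Hochberg adjusted p under 0.05), 188 of them higher (1.08%) and 307 lower (1.77%) in mimic. Of the 10 members, 1 was called higher, Efemp1, and 0 were called lower. Because the set was built around that gene, nothing is read from the count. The log2 fold change (mimic over control) was above 0 for 8 members and below 0 for 2. Its median was 0.129 over the members, against -0.00015 over all tested genes. All values below in CPM are counts scaled to library size by the TMM method (edgeR), and a difference in CPM can come from more or fewer cells of a type as well as from more or less RNA per cell, which bulk samples cannot tell apart.

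Efemp1 (ENSMUSG00000020467, chromosome 11, 28853204 to 28926743) encodes fibulin-3, a secreted glycoprotein that binds the protease inhibitor TIMP3. In control samples it ranged from 0.757 to 1.66 CPM with a median of 1.12, and in mimic samples it had 2.18, 2.47, 1.84, 1.99 and 2.94 CPM in replicates 1 to 5. All 5 mimic samples lay above all 6 control samples, with a gap of 0.17 CPM between the groups. The means were 1.17 ± 0.359 CPM (SD, n = 6) and 2.28 ± 0.435 CPM (SD, n = 5), and the edgeR model put the fold at 2.03, or 1.02 on the log2 scale (SE 0.18). These levels rest on 20 to 48 counts per control sample and 34 to 65 counts per mimic sample. At such counts, counting error alone gives a coefficient of variation (CV) of 18.9% in control and 14.3% in mimic samples, and the observed CVs were 30.7% and 19.0%. Without control replicate 1 the log2 fold change was 0.86 (SE 0.17).

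Efemp2 (ENSMUSG00000024909, chromosome 19, 5473954 to 5482517) and Fbln5 (ENSMUSG00000021186, chromosome 12, 101746565 to 101819055) encode fibulin-4 and fibulin-5, the fibulins that are required for elastin to assemble into fibres. Fbln5 ranged from 8.35 to 11.1 CPM in control samples (median 10.2) and had 12.1, 12.3, 10.1, 11.6 and 11.4 CPM in mimic samples, with a log2 fold change of 0.22 (SE 0.072). Of its 5 mimic samples 4 lay above every control sample, and replicate 3 lay within the control range. Efemp2 ranged from 9.19 to 11.3 CPM in control samples (median 10.4) and had 10.9, 10.2, 12.3, 11.8 and 11.6 CPM in mimic samples, with a log2 fold change of 0.14 (SE 0.064). The groups overlapped for both genes. Without control replicate 1, their log2 fold changes were 0.15 (SE 0.066) for Fbln5 and 0.089 (SE 0.064) for Efemp2.

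Fbln1 (ENSMUSG00000006369, chromosome 15, 85205949 to 85286535) and Fbln2 (ENSMUSG00000064080, chromosome 6, 91212455 to 91272540) encode fibulins of basement membranes and microfibrils. Fbln1 had 12.0 to 14.2 CPM in control samples and 13.4 to 15.7 CPM in mimic samples, and the fold change was 0.12 on the log2 scale (SE 0.058). Fbln2 had 11.3 to 14.6 CPM in control samples and 12.8 to 15.5 CPM in mimic samples, and the fold change was 0.024 on the log2 scale (SE 0.062). The groups overlapped for both, and Fbln2 had only 2 of 5 mimic samples above the control median.

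Fbn1 (ENSMUSG00000027204, chromosome 2, 125300594 to 125507993) and Fbn2 (ENSMUSG00000024598, chromosome 18, 58008623 to 58210487) encode the fibrillins, the main building blocks of microfibrils, and were the members with the most counts. Fbn1 ranged from 26.1 to 35.4 CPM in control samples (median 31.6) and had 38.8, 35.4, 35.5, 41.6 and 43.4 CPM in mimic samples. All mimic values were above all control values, but the gap was 0.024 CPM. Its log2 fold change was 0.33 (SE 0.092), or 1.25-fold, and 0.26 (SE 0.070) without control replicate 1. Fbn2 ranged from 24.4 to 34.1 CPM in control samples (median 30.0) and had 31.7, 34.4, 31.7, 37.2 and 39.3 CPM in mimic samples. Its groups overlapped although all 5 mimic samples were above the control median, and its log2 fold change was 0.28 (SE 0.098), or 0.22 (SE 0.081) without control replicate 1. Efemp1 and Fbn1 were the 2 members of 10 whose groups did not overlap. Among all tested genes 2.89% had no overlap, 1.16% with mimic higher and 1.73% with mimic lower. Efemp1 was chosen by its difference in this contrast, so nothing is read from the count of members.

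Fbn1 was not called by the edgeR fit, but was called by DESeq2 (log2 fold change 0.32), without a count filter (0.32) and with the replicate block (0.30). Fbn2 was called with the replicate block (0.32), and Fbln5 without a count filter (0.22) and without mimic replicate 3 (0.27). The block leaves out control replicate 6, the highest control sample of Fbn2 (34.1 CPM). Without that sample alone, the log2 fold change of Fbn2 was 0.34 and Fbn2 was not called. Mimic replicate 3 was the lowest mimic sample of Fbln5 (10.1 CPM). The log2 fold change of Efemp1 lay between 0.86 and 1.19 over the 19 alternatives. Since Efemp1 was chosen by this contrast, its calls there are no independent support.

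Eln (ENSMUSG00000029675, chromosome 5, 134702593 to 134747323) encodes tropoelastin, the soluble precursor of elastin. It ranged from 17.4 to 31.3 CPM in control samples (median 21.8) and had 23.9, 21.5, 18.8, 22.1 and 21.1 CPM in mimic samples. The mimic samples lay wholly within the control range. The log2 fold change was -0.052 (SE 0.17). It was -0.14 (SE 0.16) without control replicate 1, the lowest control sample, and 0.058 without control replicate 3, the highest control sample. Eln varied between control samples well beyond its counting error, with a CV of 24.8% where counting error alone gives 4.24%. In mimic samples its CV was 8.62%.

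Ltbp1 (ENSMUSG00000001870, chromosome 17, 75005568 to 75392512) encodes a binding protein of latent TGF-beta, and Ltbp2 (ENSMUSG00000002020, chromosome 12, 84783212 to 84876532) a fibrillin-binding relative that does not bind it. Ltbp1 had 6.03 to 7.07 CPM in control samples, a CV of 6.09%, and 5.63, 6.15, 4.60, 7.65 and 5.59 CPM in mimic samples, a CV of 18.8%. Of its mimic samples 3 lay below and 1 above every control sample, with a log2 fold change of -0.084 (SE 0.092), which was -0.0086 without mimic replicate 3 and -0.20 without mimic replicate 4. Ltbp2 had 0.903 to 1.98 CPM in control samples and 0.853 to 1.78 CPM in mimic samples, with a log2 fold change of 0.12 (SE 0.19), which was 0.013 without mimic replicate 2 and 0.25 without mimic replicate 5. Ltbp2 rested on 18 to 58 counts per sample, and its counting error alone gives a CV of 17.4% in control samples, where the observed CV was 28.6%.

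**Figure D2:**
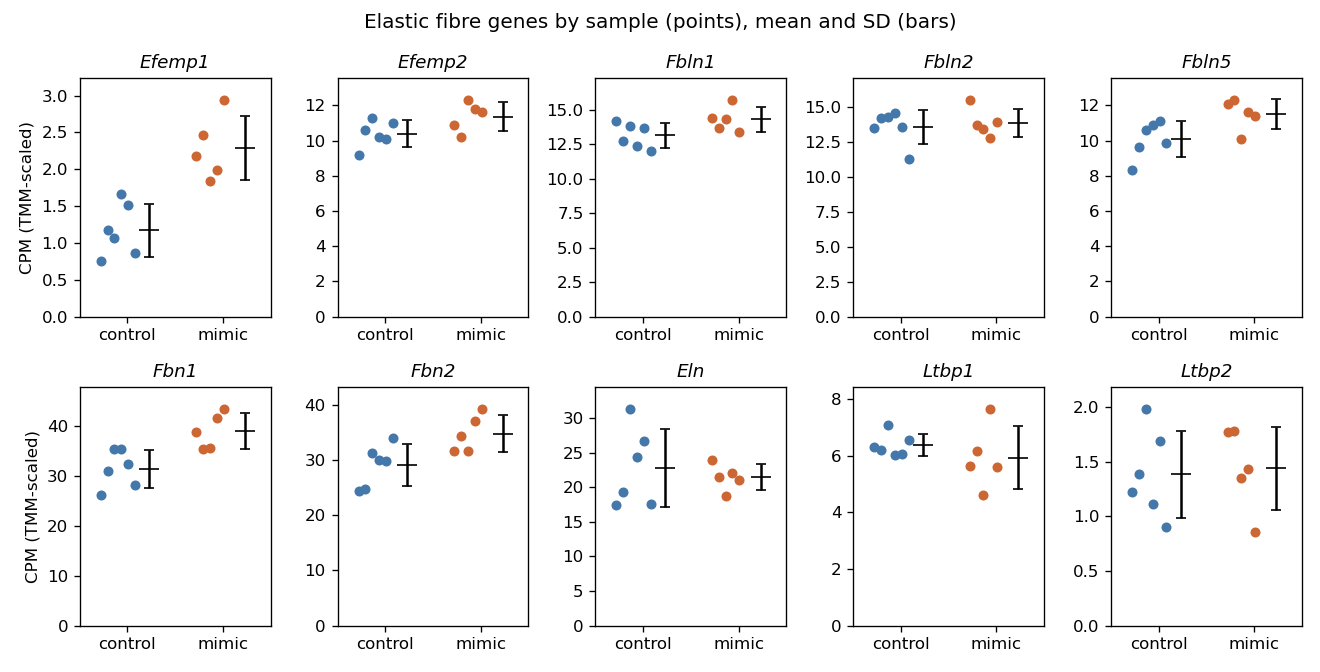
CPM of each member in 6 control and 5 mimic samples, with points for samples, bars for the mean and SD, and axes from 0. Efemp1 separates (0.757 to 1.66 against 1.84 to 2.94 CPM), Fbn1 barely does, and the other 8 members overlap.

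The pathway partners were read from 4 lists with 49 genes, of which 45 were tested. Of these, 3 were called higher and 2 lower (11.1% of the tested partners against 2.85% of all tested genes), and their median log2 fold change was 0.080. For the counts below by other rules, 7.30% of all tested genes were higher and 8.41% lower at an unadjusted p under 0.05 (edgeR), and DESeq2 called 1.14% higher and 1.91% lower. In the list of microfibril and elastin assembly, 13 of 14 tested genes had a log2 fold change above 0 (median 0.134), but 0 were called higher and 1 was called lower (edgeR), with 4 higher and 1 lower at an unadjusted p under 0.05 and 1 higher (Emilin1) and 1 lower by DESeq2. The gene called lower was Thsd4, whose product binds fibrillin and promotes microfibril assembly. It fell without overlap, from 43.9 ± 2.27 CPM in 6 control samples to 36.2 ± 3.26 CPM in 5 mimic samples (mean ± SD), with a log2 fold change (mimic over control) of -0.28 (SE 0.048, adjusted p 0.00228 by edgeR). The most abundant genes of the list that were not called were Adamts17, a metalloprotease gene (log2 fold change 0.041, SE 0.047, edgeR adjusted p 0.771), and Ltbp3 (0.11, SE 0.053, edgeR adjusted p 0.309).

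Among 6 genes of elastin cross-linking, 1 was called, and it was higher. Log2 fold changes were above 0 for 5 of the 6, and the largest, of a gene not called, was 0.62 (median 0.128). At an unadjusted p under 0.05 (edgeR), 2 were higher and 0 lower, and DESeq2 called 1 higher. Loxl2, a lysyl oxidase that cross-links collagen and elastin, rose from 11.02 ± 1.49 to 15.2 ± 1.29 CPM without overlap, with a log2 fold change (mimic over control) of 0.50 (SE 0.094, adjusted p 0.00973 by edgeR). Atp7a, the copper pump that supplies lysyl oxidases (0.024, SE 0.058, edgeR adjusted p 0.904), and Loxl3 (-0.0024, SE 0.079, edgeR adjusted p 0.995) had log2 fold changes near 0.

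Among 13 tested genes of TGF-beta and BMP ligands and of their release, 2 were called higher and 0 lower, with a median log2 fold change of 0.032. At an unadjusted p under 0.05 (edgeR), 4 were higher and 1 lower, and DESeq2 called 2 higher and 0 lower. Itgb1, the integrin beta 1 chain, rose from 172 ± 6.48 to 186 ± 7.51 CPM (log2 fold change 0.11, SE 0.030, edgeR adjusted p 0.0353). Bmp7, a ligand known to bind fibrillin, rose from 18.3 ± 1.58 to 20.8 ± 0.825 CPM (log2 fold change 0.19, SE 0.053, edgeR adjusted p 0.0464). Both calls were lost in several alternatives, 6 of 19 for Itgb1 and 10 of 19 for Bmp7. Without control replicate 1 the edgeR adjusted p was 0.128 for Itgb1 and 0.124 for Bmp7, and without mimic replicate 2 it was 0.144 and 0.106. Tgfb2 (0.032, SE 0.040, edgeR adjusted p 0.788) and Itgav (-0.078, SE 0.035, edgeR adjusted p 0.273) were abundant and not called.

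Among 12 tested proteases and inhibitors, 0 were called higher and 1 was called lower by edgeR as by DESeq2, with 2 higher and 3 lower at an unadjusted p under 0.05 (edgeR). Mmp12, the macrophage elastase, fell from 2.90 ± 0.514 to 1.54 ± 0.565 CPM, with a log2 fold change (mimic over control) of -0.94 (SE 0.17, adjusted p 0.00481 by edgeR), with 4 of 5 mimic samples below every control sample and 1 within the control range. Timp2 (0.012, SE 0.027, edgeR adjusted p 0.898) and Cst3 (-0.0049, SE 0.024, edgeR adjusted p 0.957), inhibitors of metalloproteases and of cysteine proteases, were the most abundant of the list and were not called.

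**Figure D3:**
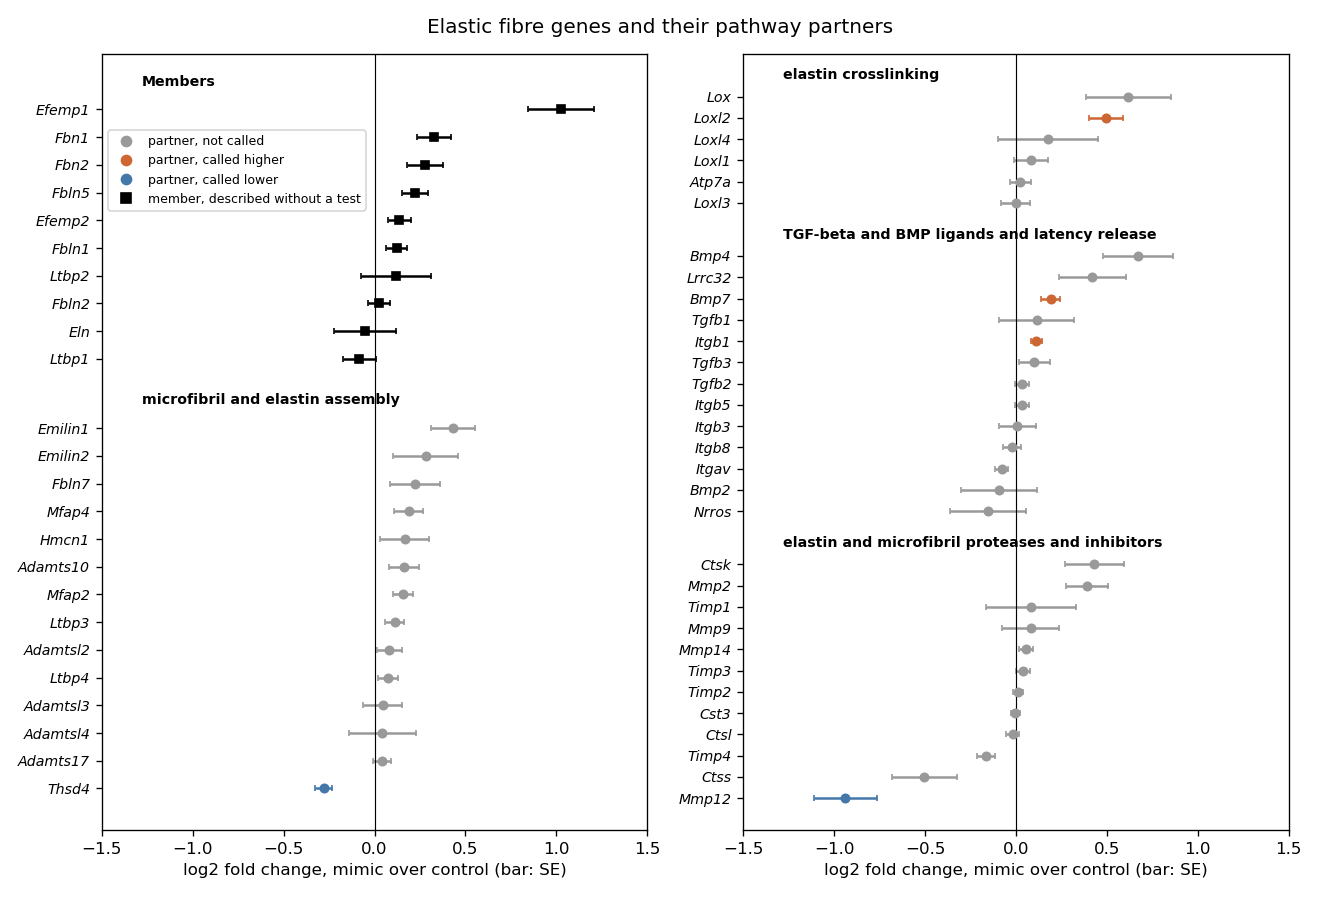
Log2 fold change, mimic over control, with bars of 1 SE, for the 10 members (black squares, described without a test) and 45 partner genes (circles, coloured where called). Efemp1 (1.02) has the largest value shown, and the called partners are Loxl2, Itgb1 and Bmp7 (higher) and Thsd4 and Mmp12 (lower).

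Markers of the cell types that such a culture can hold were read beside the members. Of the 8 marker lists, fibroblast markers had the ratio of summed levels (mimic over control) farthest from 1. All 10 had a log2 fold change above 0, from 0.21 to 0.80 (median 0.46). Of the 10, 1 was called, Foxc1, a transcription factor of meningeal mesenchyme (0.30, SE 0.085, edgeR adjusted p 0.0475, and 0.164 without control replicate 1). The Foxc1 call was kept in 6 of 19 alternatives. At an unadjusted p under 0.05, 9 of the 10 were higher (edgeR, 7.30% of all tested genes), and DESeq2 called 4 higher (1.14% of all tested genes), the collagen genes Col1a1, Col1a2 and Col3a1 and the retinoic acid enzyme gene Aldh1a2, but not Foxc1. Their summed level was 266 to 409 CPM in control samples and 424 to 572 CPM in mimic samples, without overlap, a ratio of means of 1.36, or 1.30 without control replicate 1. Control replicate 1 had the lowest fibroblast sum among all samples, as it had the lowest level of Efemp1, Efemp2, Fbln5, Fbn1, Fbn2 and Eln among the control samples. None of the 10 fibroblast markers was at 0. The part of the fibroblast signal in the members' differences was not tested.

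For endothelial cells, Cdh5, a cadherin of vessel walls, was called higher (log2 fold change 0.77, SE 0.16, edgeR adjusted p 0.00713), while 4 of the 10 markers were too low to test. Cldn5 had 1 count, Erg 8, Tie1 20 and Tek 30 over all 11 samples. The summed endothelial markers had 34.0 to 42.0 CPM in control and 35.3 to 44.3 CPM in mimic samples, mostly from Kdr. Of the mural markers Rgs5 was called lower (-0.66, SE 0.14, edgeR adjusted p 0.0227, and 0.0683 without control replicate 1). The Rgs5 call was kept in 15 of 19 alternatives. Kcnj8, Abcc9 and Higd1b were too low to test, and the mural sums overlapped (61.8 to 74.0 against 59.3 to 65.3 CPM). At an unadjusted p under 0.05 (edgeR), 2 mural markers were higher and 2 lower, and 1 endothelial marker was higher and 0 lower.

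Neuron markers, the labelled cell type, were all present, and their sum was 8990 to 9220 CPM in control and 8560 to 8840 CPM in mimic samples, without overlap. Of these markers Slc17a7 (-0.14, SE 0.033, edgeR adjusted p 0.0239) and Camk2a (-0.091, SE 0.024, edgeR adjusted p 0.0305) were called lower, but without control replicate 1 their edgeR adjusted p-values were 0.0644 and 0.0914. The call was kept in 16 of 19 alternatives for Slc17a7 and in 11 of 19 for Camk2a. Astrocyte markers summed to 4900 to 5340 CPM in control and 4500 to 4810 CPM in mimic samples, and Slc1a2, a glutamate transporter, was called lower (-0.19, SE 0.024, edgeR adjusted p 9.95e-05). At an unadjusted p under 0.05 (edgeR), 7 of 10 neuron markers and 5 of 9 astrocyte markers were lower and 0 were higher, and DESeq2 called 2 lower in each list, Slc17a7 and Camk2a in the first and Slc1a2 and Aldoc, a glycolytic enzyme gene, in the second. Choroid plexus and ependymal markers overlapped (278 to 352 against 279 to 385 CPM), with 3 log2 fold changes above 0 and 3 below. Foxj1 was called higher (0.22, SE 0.061, edgeR adjusted p 0.0494, and 0.169 without control replicate 1), a call kept in 5 of 19 alternatives. In this list 1 marker was higher and 0 were lower at an unadjusted p under 0.05 (edgeR), and DESeq2 called 0. Microglial markers had 24.7 to 26.4 CPM in control and 23.6 to 25.4 CPM in mimic samples, and the oligodendrocyte lineage 312 to 383 and 280 to 329 CPM, with 0 called in either list by edgeR or DESeq2. At an unadjusted p under 0.05 (edgeR), 1 microglial marker was higher and 1 lower, and 2 oligodendrocyte markers were lower.

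**Figure D4:**
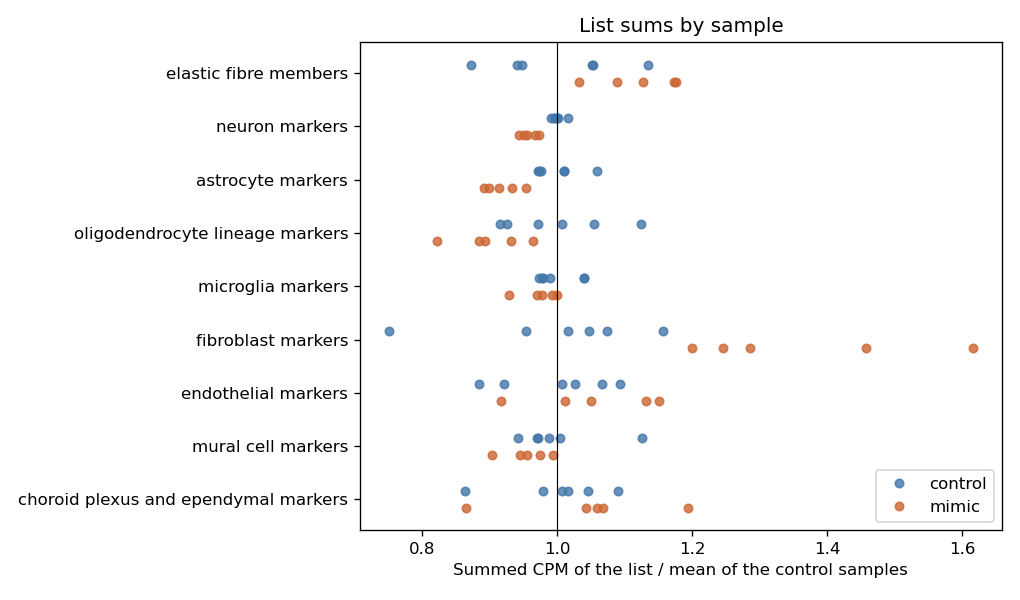
Summed CPM of the members and of 8 marker lists in each sample, divided by the mean of the control samples (points, 6 control and 5 mimic). The fibroblast sums of all mimic samples lie above those of all control samples, the neuron and astrocyte sums lie below, and the members' sums (121 to 158 against 144 to 164 CPM) overlap.

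Likeness within groups was read from the deviations of log2 CPM from the group means over the 11 samples, against the 13918 genes that averaged 1 CPM or more. These correlations share the same libraries and are given as a description. The 5 genes most like Efemp1 were Tbc1d2b (r = 0.949), Btbd19 (0.894), Dock6 (0.887), Gm26578 (0.877) and Sparc (0.874), a matrix protein gene. Their log2 fold changes ran from 0.038 (Gm26578) to 0.19 (Dock6), and their edgeR adjusted p-values from 0.0717 (Sparc) to 0.959 (Gm26578). Sparc had an adjusted p of 0.043 with DESeq2. The 3 genes most like Fbn1, the most abundant member by CPM, were the fibroblast marker Col1a1 (r = 0.945), Catip (0.916) and Cavin1 (0.912), of which Cavin1, a coat protein of caveolae, was called higher (log2 fold change 0.37, SE 0.073, edgeR adjusted p 0.00713).

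Between members, the highest values were 0.754 for Fbln5 with Eln, 0.75 for Fbn1 with Eln, 0.733 for Efemp1 with Fbln5 and 0.695 for Efemp1 with Fbn1. With the summed fibroblast markers, r was highest for Fbn2 (0.839), Fbn1 (0.79), Efemp1 (0.649) and Fbln5 (0.643), and below 0 for Fbln2 (-0.102), Ltbp2 (-0.333) and Fbln1 (-0.454). The fibrillins, Efemp1 and Fbln5 thus varied with the fibroblast markers within groups more closely than Fbln1, Fbln2 and Ltbp2 did.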

How the data were processed

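RNA of 11 samples was sequenced from poly(A) libraries as single reads of 50 bases. Per the labels and methods, the authors checked reads with FastQC 0.11.5, aligned them to mm10 with STAR 2.5.2b and counted reads per gene with featureCounts (Subread 1.5.1). The annotation release, strand setting and treatment of multiply mapped reads are not given in the sources used here. The deposited count tables hold raw counts per gene. The authors' normalized signal table (16921 genes) equals counts divided by a size factor per sample and served as an alternative.

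Counts were fitted with edgeR 4.0.16 (R 4.3.3, TMM scaling, robust quasi-likelihood test, group as the only term), after a filter on low counts (a minimum of 5 counts, reached in no less than 50% of samples), with Benjamini-Hochberg adjustment over 17365 genes at 0.05. DESeq2 1.42.0, limma 3.58.1 and other scalings, filters and left-out samples were alternatives, and the fit was tested on simulated data. Gene length and 3' UTRs came from GENCODE M21 (GRCm38), which matched 48349 of 48709 identifiers. A floor of 3 counts was 0.0631 to 0.175 CPM, covering counting error only. Replicates differed by more than sampling noise (smallest chi-square per degree of freedom 1.25).

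The members and gene lists were chosen with earlier results of these data known. Named were all members, in each partner list up to 5 called genes and the 2 most abundant not called, in each marker list up to 3 called genes, and the genes most like Efemp1 (5) and the most abundant member (3). Uncalled genes outside this rule are named only as markers too low to test or for their share of a sum. The partner and marker genes called by DESeq2 but not by edgeR (Emilin1, Col1a1, Col1a2, Col3a1, Aldh1a2 and Aldoc), of which the rule on likeness also gave Col1a1, were named after their values were seen. RNA of overlapping or antisense genes cannot be told apart without a stated strand setting.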

Additional observations from a re-analysis of the deposited data

Results flagged for a closer look

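Of 104 series of values examined (members, named genes and list sums, by group), 4 held a sample far from the others of its group, where chance alone gives about 5.2 (1 in 20). Fbln2 had 11.3 CPM in control replicate 6, against 13.5 to 14.6 CPM in the other control samples. Loxl2 had 8.18 CPM in control replicate 1, against 10.8 to 12.3 CPM in the others. Rgs5 had 8.77 CPM in mimic replicate 1, against 6.81 to 7.33 CPM in the other mimic samples. The summed mural markers had 74.0 CPM in control replicate 6, against 61.8 to 65.9 CPM in the others.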

How the results depend on the processing

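Precision is limited by counts for Efemp1 and Ltbp2 (18 to 65 per sample). Of 190 fold changes of the members (10 members, 19 alternatives), 180 kept direction and side of the threshold, 6 passed it newly and 4 changed sign. Of 532 of the other named genes, these numbers were 438, 6 and 30, and 58 lost the call. The summed RPKM of the members in control samples (18.28) stayed between 17.83 and 18.68, and the count of members with the whole 7-base match TGAATGT stayed 0 when any annotated 3' UTR was read.

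The 495 genes called became 785 without a count filter (481 shared) and 328 with the replicate block (259 shared), and 218 to 491 with 1 sample left out, lowest without control replicate 1. The 307 lower genes became 485, 154 and 141 to 295, lowest without mimic replicate 2, and the 188 higher genes became 300 without the filter and 68 to 229 with 1 sample left out, lowest without control replicate 1. Upper quartile scaling gave 49.1% lower among called genes, against 62.0%, and the replicate block 47.0%. The 1 called member became 2 with DESeq2, 3 without the filter, 3 with the block and 1 to 2 with 1 sample left out. The 5 called partner genes became 10 without the filter and 3 to 6 with 1 sample left out, and the 7 called markers 15 and 2 to 8. The cause of these changes was not tested.

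Replicate numbers gave no sign of pairing: same-numbered samples had correlations of deviations of -0.0232 to 0.0158 in 5 pairs, and others -0.0728 to 0.0781 in 25. Such values cannot decide whether same-numbered samples shared a preparation. The block also drops control replicate 6. Log2 fold changes near 0 changed sign with the block for Fbln2 (-0.013), Loxl3 (0.017), Cst3 (0.0097), Gm26578 (-0.11) and Catip (-0.054), with upper quartile scaling for Loxl3 (0.0082) and Cst3 (0.0052), with DESeq2 for Catip (-0.0020), and on the normalized table, at a pseudocount of 1 or 5, for Loxl3 (0.0054 and 0.0051) and Catip (-0.0023 and -0.0041). With 1 sample left out, ranges that crossed 0 were -0.016 to 0.057 for Fbln2, -0.14 to 0.058 for Eln, -0.0019 to 0.060 for Atp7a, -0.048 to 0.058 for Loxl3, -0.0091 to 0.028 for Timp2, -0.014 to 0.0095 for Cst3, -0.10 to 0.18 for Gm26578 and -0.12 to 0.12 for Catip. The causes were not tested.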
